A study of Mus musculus with 6 samples.

Results

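The AP-1 and EGR transcription factors are 10 genes, Fos, Fosb, Fosl1, Fosl2, Jun, Junb, Jund, Egr1, Egr2 and Egr3. They were measured here in cultured mouse cells labelled as bone marrow stromal cells (BMSCs). They are 10 of the 27195 gene symbols on the array, and were found as all non-control probes whose gene name in the scanner files is a member, 17 of the 56605 different probes. Of the 17, 12 were bright enough to test, with 1 such probe for 8 of the genes and 2 for Junb and Jund. The series holds 3 samples from knockout mice that lack NONMMUT002667, a long non-coding RNA gene (KO), and 3 from wild-type mice (WT), each on 1 single-colour (Cy3) Agilent array. All 6 samples are labelled male. Cells with Sca-1 and CD29 and without CD45 and CD11b were sorted from collagenase-digested femurs and then grown to their first passage. The description and extraction labels speak instead of irradiated human blood, and the titles, source names and organism were followed. Whether any sample was irradiated cannot be told from these labels. The labels do not give the strain, the age, the way the gene was removed or the number of animals per sample, so each p-value reflects variation among these 6 samples only, which may be technical. No probe carried a NONMMUT name, so the knockout could not be checked on its target.

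AP-1 is a dimer that joins a Fos protein to a Jun protein, or a pair of Jun proteins, through their leucine zippers, and it binds DNA at the motif TGACTCA. The EGR proteins are zinc finger factors that bind GC-rich sites such as GCGNGGGCG, and both families belong to the immediate early genes, which are transcribed within minutes of a growth factor, a stress or the dissociation of a tissue. In mice Fos is needed for osteoclasts to form, while Fosl1, Fosl2 and Junb act in osteoblasts and bone matrix, and Egr1 and Egr2 are also induced in macrophages.

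Before the members' values, 3 facts of the arrays bear on them. Xist, the RNA of the inactive X chromosome, was well above background on KO replicate 1 (-0.36) and WT replicate 3 (-0.53) only, and Eif2s3y, a gene of the Y chromosome, gave no such signal there while it did on the other 4 arrays, which goes against the label of those 2. Results are therefore also given without these 2 arrays. The arrays shared 1 slide and 1 scan, but all KO arrays lay in row 2 of the slide and all WT arrays in row 1, so slide row and genotype cannot be told apart. Same-numbered KO and WT arrays lay in the same slide column. Each of the 22 markers of macrophages and monocytes gave signal well above background on every array, with a summed level of 1334 to 1412 in KO and 1261 to 1314 in WT, or 897 to 985 in KO and 863 to 906 in WT without Lyz2, the brightest. Ptprc and Itgam, whose proteins CD45 and CD11b were sorted against, were among them, and the sorted-for genes Ly6a (Sca-1) and Itgb1 (CD29) were well above background throughout. The member values below therefore cannot be assigned to stromal cells alone. The summed level of 14 stromal and skeletal progenitor markers was 318 to 430.0 in KO and 490 to 526 in WT, but the collagen gene Col1a2 alone made up 232.0 to 360 in KO and 409 to 448 in WT. The other 13 summed to 70.4 to 87.1 in KO and 77.8 to 97.6 in WT, and the groups overlapped. The summed level of 8 osteoblast markers was 140 to 230.2 in KO and 360 to 398 in WT, and without Col1a1, the brightest, 35.4 to 47.7 in KO and 89.8 to 116 in WT. A summed level adds the linear signals, each relative to the array's 75th percentile. By the brightest probe of each gene, the osteoblast marker levels moved with genotype with and without the brightest gene, and their part in the results below was not tested. In bulk RNA, fewer cells of a type and less RNA per cell cannot be told apart.

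The upstream sequences of 4 members are shown as examples. By brightest probe, Fos, Junb and Egr2 shared their lowest array, as did Fosl2, Jund, Egr1 and Egr3, as described below. Jun was the member with separated groups. Each is the 250 bases before a RefSeq gene start in GRCm38.p6, 5′ to 3′ on the gene's strand, with capitals marking matches on either strand to any of 8 motifs. RefSeq windows were included for 7 of the 10 members, and Fosl1, Egr1 and Egr3 had none here. Fos lies at chr12:85473640-85473889 (plus strand), Junb at chr8:84978749-84978998 (minus), Egr2 at chr10:67537619-67537868 (plus, 1 of 5 listed starts, shown as an example of those whose window holds a CArG box) and Jun at chr4:95052223-95052472 (minus).
Fos: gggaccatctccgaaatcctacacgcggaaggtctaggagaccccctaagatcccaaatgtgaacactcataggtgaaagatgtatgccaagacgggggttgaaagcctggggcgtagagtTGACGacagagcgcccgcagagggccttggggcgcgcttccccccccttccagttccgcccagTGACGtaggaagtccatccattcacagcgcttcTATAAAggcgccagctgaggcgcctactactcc
Junb: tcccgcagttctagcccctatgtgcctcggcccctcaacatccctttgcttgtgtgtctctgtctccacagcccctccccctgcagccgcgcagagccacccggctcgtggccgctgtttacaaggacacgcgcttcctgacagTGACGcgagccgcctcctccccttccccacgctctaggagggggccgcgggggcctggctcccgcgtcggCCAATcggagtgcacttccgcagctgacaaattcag
Egr2: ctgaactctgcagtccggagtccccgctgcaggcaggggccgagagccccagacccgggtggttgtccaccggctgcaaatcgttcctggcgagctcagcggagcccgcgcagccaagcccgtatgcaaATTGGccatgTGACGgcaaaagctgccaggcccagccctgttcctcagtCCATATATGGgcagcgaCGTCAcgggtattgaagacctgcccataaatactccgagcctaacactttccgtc
Jun: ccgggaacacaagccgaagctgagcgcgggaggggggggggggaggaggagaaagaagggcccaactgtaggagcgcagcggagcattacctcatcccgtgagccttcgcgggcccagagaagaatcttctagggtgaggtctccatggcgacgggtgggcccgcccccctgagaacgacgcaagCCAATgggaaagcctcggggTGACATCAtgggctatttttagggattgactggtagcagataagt
In the Fos window the capitals are TGACG, the core of the cAMP response element, at 2 places and a TATAAA box 33 bases before the start. The Egr2 window holds a CArG box, the binding motif of serum response factor, 72 bases before the start, TGACG on each strand and CCAAT on the minus strand. The Junb window holds TGACG and CCAAT, and the Jun window CCAAT and TGACATCA, a variant of the AP-1 motif, 45 bases before the start. Over all 32851 RefSeq windows of this length, TGACG was present in 17.8%, CCAAT in 33.8%, TATAAA in 12.4%, TGACATCA in 2.93% and the CArG box in 1.47%. The other motifs searched were TGACTCA (4.46% of windows), the full element TGACGTCA (1.55%), which contains TGACG, and GCGNGGGCG (4.70%), and the 4 windows printed held none of these letters. Among members not printed, the Jund window held no match to any motif searched, and the Fosl2 window held GCGNGGGCG only. The window of Fosb, whose lowest array was another, held TGACG and GCGNGGGCG. The Egr2 windows differed: that of the first listed start held no match, and that of the second a CArG box only. Among the members with a window, TGACG was thus not shared by all with the same lowest array, nor limited to them. Egr1 and Egr3 were not included. A match is a description of the letters and not a measured binding site.

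Loss of NONMMUT002667 came with small differences in these factors, and none passed the test over all probes. By limma over 28606 probes, 0 of the 12 member probes had an adjusted p under 0.05, where 0.0594% of all tested probes did. At an unadjusted p under 0.05 there were 2 of 12, Jun and Egr2, both higher in KO, against 15.5% of all tested probes in either direction and 8.24% in the higher direction. The 3 KO values lay entirely above the 3 WT values for 1 of 12 probes, that of Jun, against 12.6% of all probes in that direction, and for 0 of 12 entirely below, against 9.57%. Either kind of separation was seen in 22.2% of all probes. The median log2 difference (KO minus WT) was -0.013 over the 12 member probes and 0.02 over all tested probes, and 6 of the 12 were below 0, against 43.8% of all probes. All 12 of the 95% intervals lay within a 2-fold change either way, with bounds from -0.78 to 0.99 on the log2 scale, and 9 lay within a 1.5-fold change. Levels in the text are log2 signals after subtraction of the 75th percentile of their array, and they compare arrays for 1 probe, not probes with each other.

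**Figure D1:**
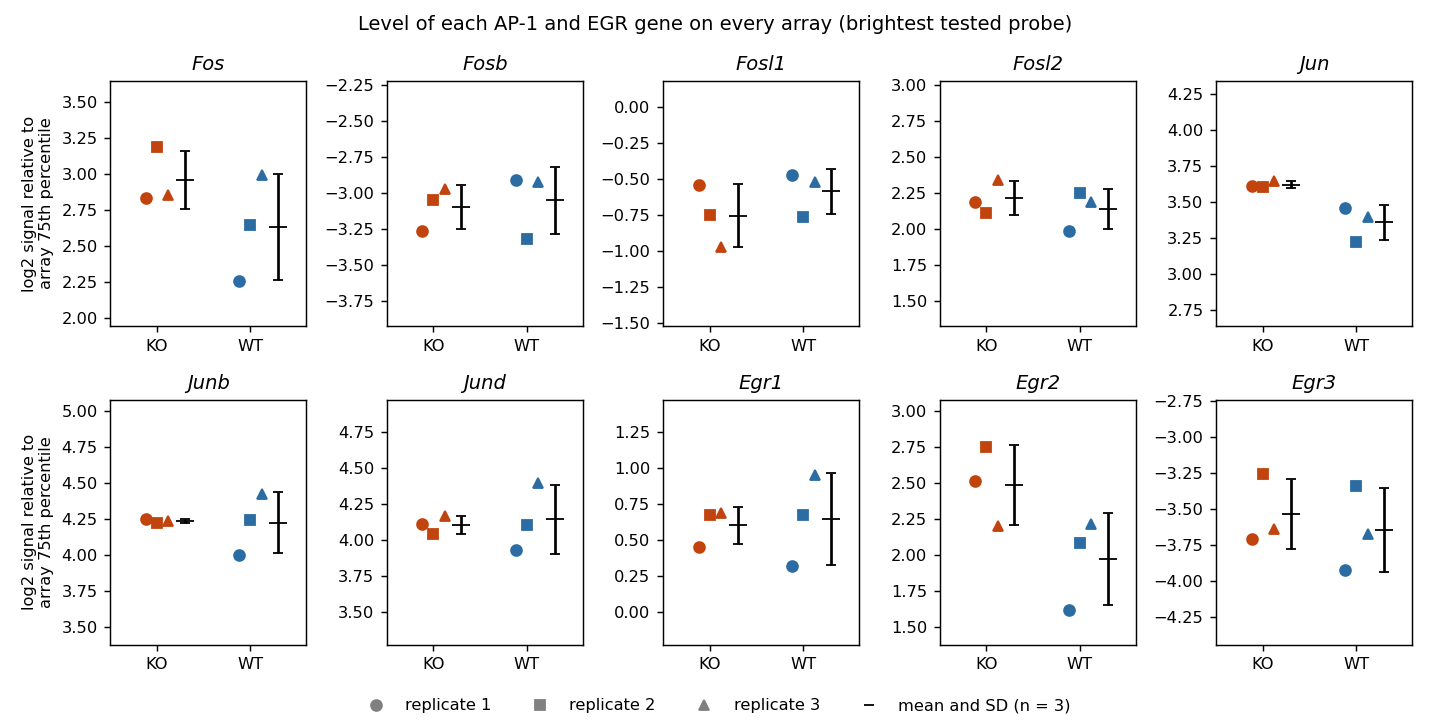
Level of each member gene by its brightest tested probe, as log2 signal minus the array's 75th percentile, with 1 point per array (KO left, WT right; symbols give the replicate) and the mean with its SD (n = 3). Each panel spans the same log2 range; the groups are separate for Jun and overlap for the other 9 genes.

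Among the Fos family, Fos itself, the AP-1 partner that is induced most widely, had levels of 2.84, 3.19 and 2.86 in KO replicates 1 to 3, against 2.26, 2.65 and 3.00 in WT replicates 1 to 3 (probe on chromosome 12, 86818118 to 86818177, mm9). WT replicate 1 was the lowest and KO replicate 2 the highest of the 6 arrays, and the groups overlapped, because WT replicate 3 lay above 2 of the KO arrays. The difference was 0.33 (SE 0.20, 95% interval -0.15 to 0.80, limma adjusted p = 0.491). It was 0.14 without WT replicate 1 and 0.21 without KO replicate 2 (limma adjusted p = 0.790 and 0.728). Without WT replicate 3 it was 0.51, and without the 2 arrays with Xist signal 0.57 (limma adjusted p = 0.320 and 0.362). The estimate thus turned on which arrays of both groups were kept.

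Fosb, a Fos relative that is also expressed as a truncated form, lay near the detection limit, with -3.26, -3.05 and -2.97 in KO against -2.91, -3.32 and -2.92 in WT (chromosome 7, 19888168 to 19888227, mm9). The KO values lay inside the WT range, and the difference was -0.04 (SE 0.14, limma adjusted p = 0.916). Fosl1, which encodes Fra-1, had -0.54, -0.75 and -0.97 in KO and -0.47, -0.76 and -0.53 in WT (chromosome 19, 5455496 to 5455555, mm9). KO replicate 3 was the lowest array, and the difference was -0.17 (SE 0.14, 95% interval -0.50 to 0.16, limma adjusted p = 0.610), or -0.28 without KO replicate 1, -0.06 without KO replicate 3, -0.11 without WT replicate 1 and -0.26 without WT replicate 2. Fosl2, which encodes Fra-2, had 2.19, 2.11 and 2.34 in KO and 1.98, 2.25 and 2.19 in WT, a spread over all 6 arrays that was the smallest of the member genes (SD 0.122). Its difference was 0.07 (SE 0.10, 95% interval -0.18 to 0.32, limma adjusted p = 0.796).

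Jun, the AP-1 subunit that can pair with every Fos protein and with itself, was the member with separated groups. Its levels were 3.61, 3.60 and 3.65 in KO, against 3.45, 3.22 and 3.40 in WT (chromosome 4, 94716928 to 94716987, minus strand, mm9). The KO arrays lay close together and all of them above the highest WT array. The difference was 0.26, or 1.20-fold (SE 0.09, 95% interval 0.06 to 0.47, limma adjusted p = 0.232), which ranked 2472 of all 28606 probes by p. Its estimate was among the steadier ones, from 0.19 without WT replicate 2 to 0.31 without WT replicate 1, and 0.29 without the 2 arrays with Xist signal (limma adjusted p = 0.473).

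Junb, a Jun relative with weaker activating power, was nearly constant in KO. By its brightest probe it had 4.25, 4.22 and 4.23 in KO and 4.00, 4.24 and 4.42 in WT, so the KO values sat inside the WT range, and the difference was 0.01 (SE 0.12, 95% interval -0.26 to 0.29, limma adjusted p = 0.975). The other tested Junb probe, 1038 bases away, had -2.49, -3.06 and -3.23 in KO and -2.87, -2.75 and -2.38 in WT, with a difference of -0.26 (SE 0.22, limma adjusted p = 0.626). It moved to -0.48 when KO replicate 1 was left out and to -0.11 when KO replicate 3 was, and it was -0.12 without WT replicate 3. The sign of the Junb difference was thus not shared by its 2 probes, and neither passed.

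Jund, the Jun protein most abundant in resting cells, had 4.11, 4.04 and 4.16 in KO and 3.92, 4.10 and 4.40 in WT by its brightest probe, a difference of -0.04 (SE 0.13, limma adjusted p = 0.923). A probe 134 bases further along had 4.25, 3.87 and 3.86 in KO and 4.41, 3.91 and 4.17 in WT, a difference of -0.17 (SE 0.16, limma adjusted p = 0.672). It was -0.30 without KO replicate 1 or WT replicate 2, -0.11 without KO replicate 2 or 3 and -0.05 without WT replicate 1. WT replicate 1 was the lowest of the 6 arrays by the brightest probe and the highest by the other, so the 2 Jund probes did not rank the arrays alike.

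Of the EGR genes, Egr2, which encodes the factor Krox20, showed the largest difference of any tested member probe. It had 2.51, 2.74 and 2.20 in KO, against 1.61, 2.08 and 2.22 in WT (chromosome 10, 67004758 to 67004817, mm9). Both other KO arrays lay above every WT array, while KO replicate 3 lay just below WT replicate 3. The difference was 0.51, or 1.43-fold (SE 0.20, 95% interval 0.04 to 0.99, limma adjusted p = 0.292), larger in size than 93.9% of tested probes. It was 0.33 without WT replicate 1 and 0.66 without KO replicate 3 (limma adjusted p = 0.497 and 0.249), and 0.62 without the 2 arrays with Xist signal (limma adjusted p = 0.432).

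Egr1, the family member most used as a marker of recent stimulation, had 0.45, 0.67 and 0.68 in KO and 0.32, 0.67 and 0.95 in WT. The WT arrays held both the lowest and the highest value, and the difference was -0.04 (SE 0.17, 95% interval -0.44 to 0.35, limma adjusted p = 0.931). Without the 2 arrays with Xist signal the sign turned (0.18, limma adjusted p = 0.707). Egr3 was near the detection limit, with -3.71, -3.26 and -3.64 in KO and -3.93, -3.34 and -3.67 in WT by the probe on chromosome 14, 70482361 to 70482420 (mm9), and it was well above background on 2 KO and 3 WT arrays. Its difference was 0.11 (SE 0.18, 95% interval -0.32 to 0.55, limma adjusted p = 0.821).

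**Figure D2:**
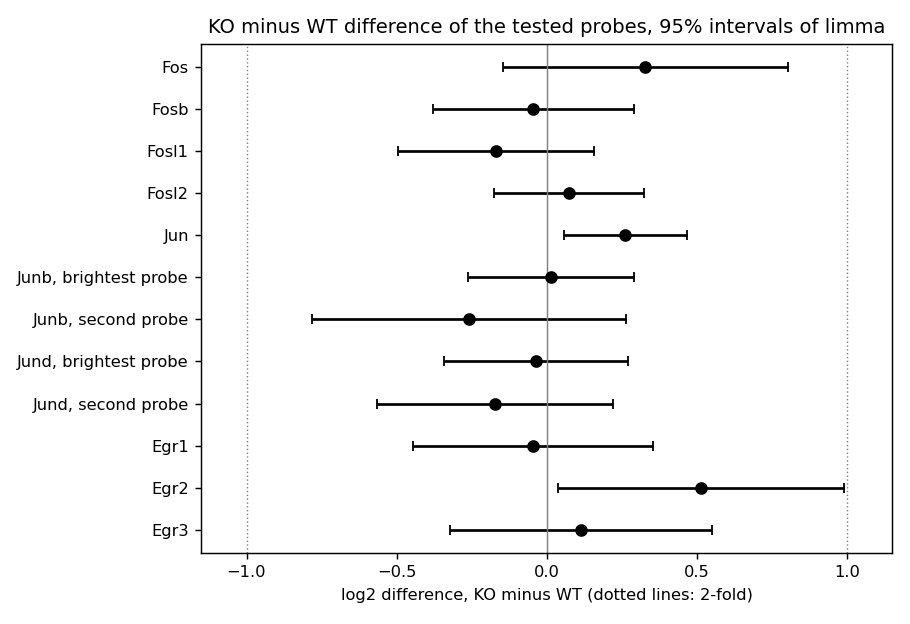
Log2 difference (KO minus WT) of the 12 tested member probes with 95% intervals from limma, with dotted lines at a 2-fold change. The intervals of Jun (0.06 to 0.47) and Egr2 (0.04 to 0.99) lie above 0, and all 12 stay inside the dotted lines.

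The other 5 member probes were not tested. Probes of Fosb, Fosl2, Junb and Egr3 were not well above background on any array, and a further Egr3 probe was well above background on 1 WT array only. In 3 of the 5, all KO values lay above all WT values. The dim Fosb probe, for example, had -6.32, -6.20 and -5.83 in KO and -6.54, -6.78 and -6.72 in WT. These values follow the floor of the arrays: the median of the 22288 probes that were not well above background on any array was -6.33, -6.23 and -5.85 in KO and -6.55, -6.77 and -6.71 in WT.

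Array WT replicate 1 was singled out after the values were seen. It is a WT array, so array and genotype are not separated in what follows. WT replicate 2 was the lowest of the 6 arrays for Fosb and Jun, and KO replicate 3 for Fosl1. WT replicate 1 was the lowest for 7 of the 10 genes by their brightest probe (Fos, Fosl2, Junb, Jund, Egr1, Egr2 and Egr3). Over all 15371 tested genes it was the lowest for 23.0%, also the largest share, against 12.5% to 18.9% on the other arrays. Counted over probes it was the lowest for 7 of 12. By the other tested probe of Junb and of Jund, KO replicate 3 was the lowest array instead. Set against the mean of the other 2 WT arrays, the level on WT replicate 1 differed by -0.56 for Fos, -0.54 for Egr2, -0.49 for Egr1 and -0.42 for Egr3 on the log2 scale. For Fosb, Fosl1 and Jun that difference was above 0, at 0.21, 0.17 and 0.14. By brightest probe, the range over the WT arrays exceeded that over the KO arrays for 9 of the 10 genes, Fosl1 being the exception, against 49.8% of all tested genes. Over replicates 2 and 3 alone it did so for 7 of the 10, and the share of all genes was not computed for these. By its other tested probe, Junb had the wider range in KO (0.74, against 0.49 in WT). Averaged over the 10 genes, the deviation from each gene's own mean was 0.01, 0.12 and 0.02 in KO replicates 1 to 3 and -0.21, -0.05 and 0.11 in WT replicates 1 to 3. The median deviation of all tested genes on WT replicate 1 was -0.03.

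**Figure D3:**
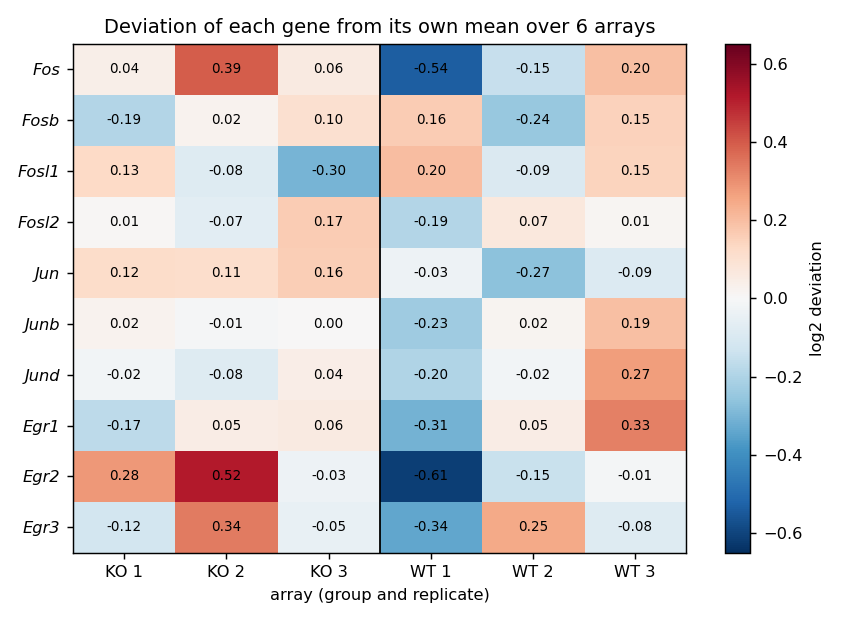
Log2 deviation of each member gene from its own mean over the 6 arrays, by brightest tested probe, with KO arrays left of the line and WT arrays right of it. WT replicate 1 holds the lowest value of 7 genes, and the largest deviations are those of Egr2 and Fos.

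In the related lists described below, the share of genes lowest on WT replicate 1 varied, beside the 23.0% of all genes given above. It was 8 of 13 for heat shock genes of the dissociation response, 12 of 29 for other immediate early genes and 3 of 6 for EGR relatives and corepressors. For AP-1 partners it was 5 of 17, for upstream kinases and their factors 8 of 25, and for feedback phosphatases and Sprouty genes 5 of 15. AP-1 target genes had 4 of 22 and EGR target genes 2 of 14.

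For Egr2, Fos and Egr1, the 3 members with the widest spread among those well above background on all arrays, the other genes with the most similar profiles were named by the smallest root mean square difference over the 6 arrays, among 14282 genes. Closest to Fos was F3, which encodes tissue factor, the trigger of blood coagulation, at 0.061, followed by Rnf128 (0.063) and Tas1r3 (0.065). Closest to Egr2 were Nlrp10 (0.064), Matk (0.085) and Tas1r3 (0.104), and closest to Egr1 were Ak5 (0.056), Cwf19l2 (0.057) and Lrrc71 (0.060). With 6 arrays and this many genes, such closeness is a description of these profiles. None of these genes passed between KO and WT (limma adjusted p from 0.295 to 0.978).

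The genes around these factors were read in lists that hold none of the 10. Of 17 AP-1 partners and other leucine zipper factors tested, 0 passed, 1 was higher and 1 lower at an unadjusted limma p under 0.05, and the median difference was 0.07. At that level 8.24% of all tested probes were higher and 7.28% lower. Nfe2l1, a regulator of proteasome genes, differed by -0.28 (limma adjusted p = 0.199) and Batf3, a partner of Jun proteins in immune cells, 0.43 (limma adjusted p = 0.257). Of 25 upstream kinases, ternary complex factors and coactivators, 0 passed and 1 was higher at the unadjusted level (median 0.08). That gene was Mrtfb, a coactivator of serum response factor, with 0.21 (SE 0.08, limma adjusted p = 0.275).

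The list of feedback phosphatases and Sprouty genes held 15 tested genes, of which 0 passed. Of the 14 that were well above background on all arrays, 3 were lower and 0 higher at an unadjusted limma p under 0.05, against 7.28% of all probes in the lower direction. The remaining gene, Spry4, an inhibitor of receptor tyrosine kinase signalling, was well above background on no KO array and on all 3 WT arrays, with -4.20, -4.13 and -4.03 in KO and -3.37, -3.29 and -3.52 in WT. With the KO signals raised to the lowest that count as above background there, the mean was 1.43-fold lower in KO, a figure without a sampling error. Spry4 was tested only through its WT signals, a selection that favours a lower KO value, and it did not pass (limma adjusted p = 0.0592 on the signals as measured). Spry1, its relative, averaged 1.69 ± 0.19 in KO and 2.18 ± 0.14 in WT (SD, n = 3 each), with no overlap and a difference of -0.49 (limma adjusted p = 0.150). Dusp14 and Dusp8 had differences of -0.63 and -0.64 (limma adjusted p = 0.186 and 0.233). The list as a whole had a median of 0.05, with 9 members above 0.

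Other immediate early genes did not share 1 direction: of 29 tested, 0 passed, and 5 were higher and 3 lower at an unadjusted limma p under 0.05 (median 0.08). Among all tested probes the shares were 8.24% higher and 7.28% lower. Nr4a2, an orphan nuclear receptor, had -1.54, -1.53 and -1.34 in KO and -0.90, -0.19 and -0.64 in WT, with no overlap (difference -0.89, SE 0.18, limma adjusted p = 0.102), and its other probe had -1.05. Npas4, a factor known from neurons, had a difference of 0.78 (limma adjusted p = 0.169), Rhob, a small GTPase, 0.32 (limma adjusted p = 0.159) and Ptgs2, the inducible cyclooxygenase, -0.86 (limma adjusted p = 0.208). Among 6 EGR relatives and corepressors tested, Klf4, a zinc finger factor of stem and myeloid cells, had 3.12, 2.85 and 3.21 in KO and 3.81, 4.08 and 3.69 in WT (difference -0.80, SE 0.14, limma adjusted p = 0.0833). Of the 13 heat shock genes, 0 passed and 0 had an unadjusted p under 0.05 (median 0.06). Hspa1a, an inducible chaperone of the HSP70 family, had the smallest p of them, with a difference of 0.34 (limma adjusted p = 0.329).

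Genes known as targets of AP-1 held the single gene of these lists that passed. Of 22 tested, Ibsp, the bone sialoprotein gene, fell, with 3.70, 3.31 and 3.72 in KO against 5.13, 5.57 and 5.23 in WT (difference -1.73, SE 0.16, limma adjusted p = 0.0496), and 0 rose. The groups did not overlap, but the call was lost when any 1 array was left out, with differences from -1.82 to -1.60 and limma adjusted p from 0.0527 to 0.112, and without the 2 arrays with Xist signal (-1.83, limma adjusted p = 0.121). With the replicate number, and so the slide column, as a block the limma adjusted p was 0.172. At an unadjusted limma p under 0.05, 3 of the 22 were higher and 6 lower, against 8.24% and 7.28% of all tested probes, and the list median was -0.03. Plau, the urokinase gene, had 3.37, 3.35 and 3.39 in KO and 3.02, 2.79 and 2.97 in WT (difference 0.44, SE 0.09, limma adjusted p = 0.0945), and Mmp12, the macrophage elastase, differed by 0.65 (SE 0.13, limma adjusted p = 0.0991). Bglap, the osteocalcin gene, had -1.76 (SE 0.37, limma adjusted p = 0.107). Ibsp, Bglap and Col1a1, all of them among the lower AP-1 targets, also count among the 8 osteoblast markers whose summed level was lower in KO. By brightest probe all 8 of those were lower at an unadjusted limma p under 0.05, against 7.28% of all tested probes. Other probes differed by -0.21 and -0.14 for Col1a1 (brightest -0.90) and from -0.75 to 0.07 for Runx2 (brightest -1.24). The other probes of Phex, Bglap, Sp7 and Alpl were all below 0.

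Genes known as EGR targets showed 0 of 14 past the test, and a median of -0.08. Of the 12 well above background on all arrays, 4 were lower and 0 higher at an unadjusted limma p under 0.05, against 7.28% and 8.24% of all tested probes. Col14a1, a fibril-associated collagen, exceeded background well on 1 KO and 3 WT arrays, with -3.63, -4.41 and -3.84 in KO and -2.81, -2.61 and -2.65 in WT, so its difference rests in part on KO signals near the floor. Scx, the tendon factor scleraxis, averaged 1.33 ± 0.41 in KO and 2.43 ± 0.11 in WT (SD, n = 3 each; difference -1.10, limma adjusted p = 0.0887). Pdgfa, a growth factor for mesenchymal cells, had -0.43 and Col5a1, a fibrillar collagen chain, -0.75 (limma adjusted p = 0.116 and 0.123). The 14 stromal markers, whose summed level is given above, had a median difference of -0.16 and 0 past the test.

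**Figure D4:**
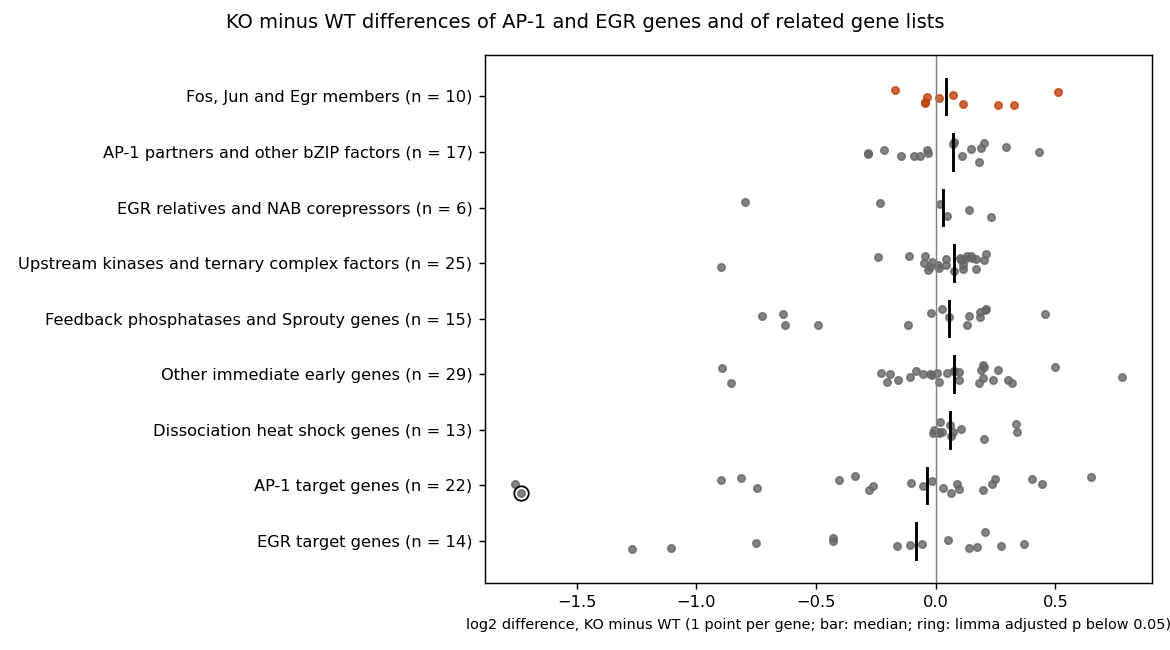
Log2 difference (KO minus WT) of the 10 members and of the tested genes of 8 related lists by brightest probe, 1 point per gene, with a bar at the median and a ring where the limma adjusted p is below 0.05. The members lie between -0.17 and 0.51 with a median of 0.04, and the ring in the AP-1 target list is Ibsp at -1.73.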

How the data were processed

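The intensity values are the scanner software's processed signal, mean signal and median background for each spot, as deposited; per the file headers the software was Feature Extraction 10.7.1.1 (Agilent) and the build mm9, while the submitters' processing notes name version 9.1. The deposited series table holds log2 values whose columns share 1 distribution, and it served as an alternative. The description and extraction labels speak of irradiated human blood, and the titles, source names and organism were followed. Of the 59305 non-control spots per array, 49 to 131 flagged as outliers were left out. Log2 processed signals were centred on each array's 75th percentile and averaged over a probe's spots. Tests covered probes with 2 or more values per group that exceeded background well on all arrays of KO, of WT or of both. KO was set against WT in limma 3.58.1 (R 4.3.3) by a two-sided moderated test with genotype alone in the model, adjusted by Benjamini-Hochberg over all 28606 probes (threshold 0.05), and the fit was tested on simulated data. The brightest tested probe stands for a gene. Of each list up to 4 genes with the smallest p were eligible to be named, plus any past the threshold. Members, lists and alternatives were chosen with earlier results of these data known. Between 49.0% and 56.7% of spots per array were well above background, and the number of arrays limits the precision.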

Additional observations from a re-analysis of the deposited data

How the results depend on the processing

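No alternative called a member probe: the count stayed at 0 under each of the 14 settings tried, with 0 to 4 at an unadjusted limma p under 0.05. The 4 arose only without the filter on dim probes, where 17 member probes entered. Of the 12 member probes tested above, Jun alone was among these 4, and the others were dim probes left untested above. In that setting 18002 of all 56605 probes were at the unadjusted level. The number of all probes past the threshold, 17, moved to 101 with median centring, 215 with normexp background correction and quantile normalization, 0 without the filter on dim probes (18002 at an unadjusted limma p under 0.05), 220 with a variance trend and 9 when only probes bright on every array were kept. It ranged from 2 (without WT replicate 1) to 31 (without WT replicate 3) when each array was left out in turn, and was 4 without WT replicate 2. Ibsp lost its call without the filter on dim probes (limma adjusted p = 0.0772) and under the replicate block (0.172). With the replicate number as a block the number of all probes past the threshold was 0 (4647 at an unadjusted p under 0.05), and deviations of same-numbered arrays correlated with r = 0.056, 0.154 and -0.032, so the numbers did not meet the rule for pairing, although same-numbered arrays also share a slide column and the block is a block on that column too. Slide and scan could not be fitted as a block, because all arrays share 1 of each. The median of the member probes ranged from -0.038 to 0.099 over the fits leaving out 1 array. Signs turned for members near 0. Junb had -0.015 with median centring and -0.023 with the series table. Without the 2 arrays with Xist signal, Fosb had 0.10, Jund 0.088 and Egr1 0.18. Leaving out 1 array each gave -0.18 to 0.040 for Fosb, -0.0046 to 0.13 for Fosl2, -0.099 to 0.11 for Junb, -0.15 to 0.090 for Jund, -0.21 to 0.11 for Egr1 and -0.025 to 0.27 for Egr3, each by the brightest probe. Fos, Fosl1, Jun and Egr2, and the dimmer Junb and Jund probes, kept their sign under every setting. The cause of these shifts was not tested.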
